A study of Acipenser sinensis with 45 samples.

Results

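The hypothalamus libraries of Chinese sturgeon (Acipenser sinensis) females at gonad stage II (FH, 3 fish over 4 years old) were set against those of fish at gonad stage I (UH, 6 fish of 1 year whose sex was not known). These are 9 of the 45 libraries of a series that also holds the pituitaries and gonads of the same fish and of 6 stage II males. All fish came from an artificially bred population, and each library came from 1 fish. A unigene, that is, a transcript assembled without a genome, was kept where its level in each of the 3 females lay on the same side of the UH mean. This held for 55379 of the 82484 unigenes tested, out of 121952 in the table, and for 51665 of 79610 unigenes when the values were rescaled. Age and gonad stage differ between FH and UH, the sex of the UH fish was not known, and the parts of age, stage and sex cannot be told apart.

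The hypothalamus is the brain region that heads the reproductive axis of vertebrates. Its neurons release gonadotropin-releasing hormone, which acts on the pituitary, and the pituitary gonadotropins in turn act on ovary and testis. Steroids from the gonad feed back on the hypothalamus. The table names its unigenes only by assembly number, and 0 of its identifiers matched the 78555 genes of the RefSeq reference table for the species, so no gene of this axis can be followed by name and no sequence is shown.

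Levels are FPKM, the fragments mapped to a unigene divided by its length and by the mapped fragments of the library. Female 1 was sequenced on a HiSeq 2000, as were all UH libraries, with reads of 90 nt. Females 2 and 3 were sequenced on a HiSeq 4000, with reads of 100 nt. The lowest FPKM steps gave a rough estimate of depth relative to UH replicate 1, and no read counts were used here. It was 1.11 to 1.39 in FH, with 1.39 in FH replicate 1, and 0.96 to 1.11 in UH. The clean reads listed in the paper differ less between FH replicate 1 and UH replicate 1. The estimate is thus not the sequencing depth. FH replicate 1 stood apart in how its FPKM was spread over unigenes, since its 10 most abundant unigenes held 45.24% of its FPKM, against 10.4 and 13.94% in the other FH libraries and 8.834 to 20.53% in UH. Because FPKM is a share of the library, FH and UH were compared on FPKM as deposited and again after median-of-ratios scaling, which divides each library by the median ratio of its unigenes to their geometric mean over libraries. The scaling factors were 0.583, 0.803 and 0.80 in FH and 1.03 to 1.47 in UH.

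More unigenes were lower than higher in FH on both scales, and the balance depended on the scale. With FPKM as deposited, 6048 unigenes (7.33% of those tested) were higher and 38462 (46.6%) were lower in FH with one direction in all 3 females (limma, Benjamini-Hochberg adjusted p under 0.05). After scaling, 16425 (20.6%) were higher and 23777 (29.9%) were lower. The higher unigenes were thus 13.6% of the calls as deposited and 40.9% after scaling. The median change of all tested unigenes moved as well, with a log2 fold change of -0.66 as deposited and -0.18 after scaling. Fold changes are on the log2(FPKM + 1) scale, which understates the change of low unigenes.

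The calls that did not depend on the scale were 6028 higher unigenes (7.67% of the 78603 tested on both scales) and 23777 lower unigenes (30.2%). The 6028 higher unigenes had a median level of 7.88 FPKM in FH, against 1.73 FPKM in UH, and a median log2 fold change of 1.41 as deposited. The 23777 lower unigenes had a median level of 0.462 FPKM in FH, against 4.54 FPKM in UH, and a median log2 fold change of -1.74. Changes of at least 3 on the log2 scale were reached by 303 of the higher and 2091 of the lower unigenes. Every FH library lay above every UH library for 3700 of the 6028 higher unigenes, and below every UH library for 23231 of the 23777 lower unigenes, with FPKM as deposited. Among all tested unigenes, 4.61% lay above and 40.6% below UH without overlap. On the scaled values, 12999 of the 16425 higher and 18943 of the 23777 lower unigenes of that scale did not overlap, against 17.0 and 24.6% of all tested.

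**Figure D1:**
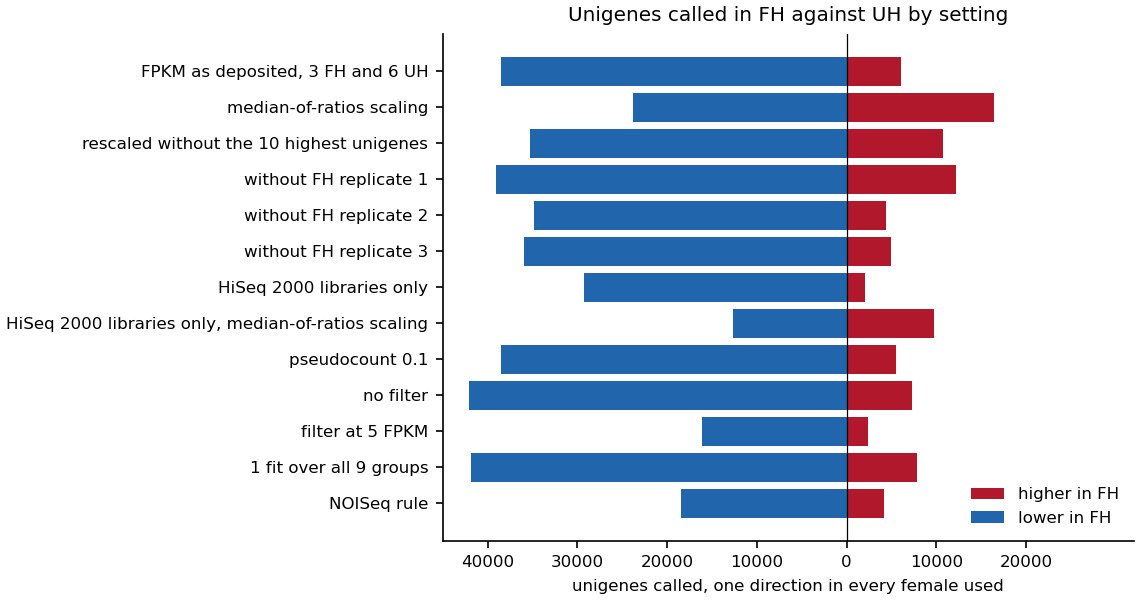
Unigenes called higher (red, right) and lower (blue, left) in FH against UH under 13 settings, with one direction in every female used. The bars start at 0; the higher calls run between 2104 with the HiSeq 2000 libraries alone and 16425 after median-of-ratios scaling, and the lower calls exceed the higher ones in every bar.

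The share of unigenes called differed between classes of mean level, which were set on FPKM as deposited for both scales. As deposited, 28.8% of the 416 unigenes with a mean of 100 FPKM or more were higher in FH and 30.0% were lower. In the class of 1 to 10 FPKM, which held 66125 unigenes, 6.91% were higher and 47.0% lower. After scaling, 51.4% of the unigenes at 100 FPKM or more were higher and 22.8% lower. Below 1 FPKM, 3.19% were higher and 43.7% lower as deposited, and 22.1% were higher and 20.6% lower after scaling. A unigene of this class could pass the filter through the group where it was high. The filter was applied on each scale, and it left 7049 of them as deposited and 4430 after scaling. The shares of this class thus follow in part from the filter. The excess of lower calls was thus present between 1 and 100 FPKM on both scales, with 28.2% higher and 33.0% lower after scaling in the class of 10 to 100 FPKM, and depended on the scale at the lowest and highest levels.

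The 3 females were not alike in how many unigenes lay above the UH mean. As deposited, 18.53% of the tested unigenes were above it in FH replicate 1, 30.55% in replicate 2 and 32.46% in replicate 3. After scaling the shares were 45.85, 43.31 and 43.46%. All 3 females lay below the mean for 46497 unigenes (56.37%) and above it for 8882 (10.77%) as deposited, and for 29971 (37.65%) and 21694 (27.25%) after scaling. Female 1 went against females 2 and 3 for 14578 unigenes (17.67%) as deposited and 15868 (19.93%) after scaling. One of females 2 and 3 went against the other pair for 12527 (15.19%) and 12077 (15.17%) unigenes.

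**Figure D2:**
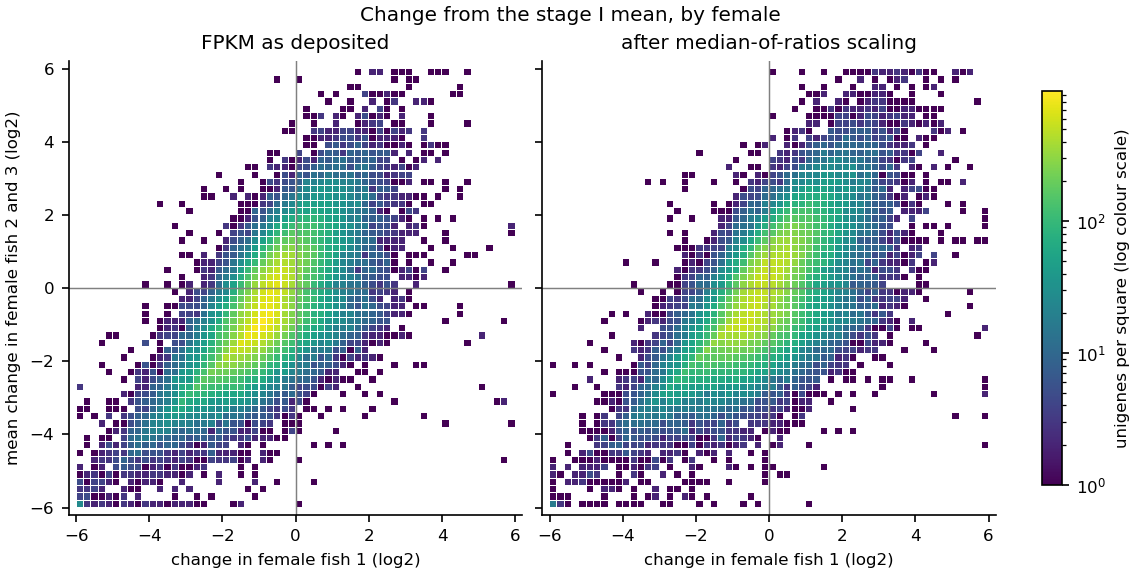
Change in FH replicate 1 (horizontal) against the mean change in FH replicates 2 and 3 (vertical), each relative to the UH mean on the log2(FPKM + 1) scale, for all tested unigenes, as deposited (left) and scaled (right). Colour gives the unigenes per square on a log scale, and changes beyond 6 are drawn at the edge; the median change of replicate 1 lies at -0.76 as deposited and at -0.10 after scaling.

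The rule of one direction turns on changes near 0 for only some of its unigenes. Of the 55379 unigenes with one direction as deposited, 3867 (6.98%) had at least 1 female within 0.1 on the log2 scale of the UH mean. Of the 27105 without one direction, 3837 (14.2%) had the dissenting female within that distance. The test alone, without the rule, gave 6459 higher and 38851 lower unigenes as deposited, so the rule removed few calls. Within the calls made on both scales, the higher unigenes had median changes of 0.76, 1.74 and 1.72 in FH replicates 1, 2 and 3 as deposited and 1.59, 2.22 and 2.19 after scaling. The lower unigenes had -1.60, -1.75 and -1.87 as deposited and -1.04, -1.42 and -1.55 after scaling. Female 1 thus had the smallest median change in both directions.

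Female 1 is the only female on the platform of the UH libraries, so a fit of that fish alone against UH removes the platform from the comparison and leaves 1 fish. It called 2104 higher and 29255 lower unigenes as deposited, with the lone fish assumed to vary like the UH fish. The median log2 fold change over all unigenes of that fit was -0.80 as deposited and -0.09 after scaling. Both fits use FH replicate 1 and the same UH libraries, so calls made by both are not an independent check and are not counted. With FH replicate 1 left out, 12206 unigenes were higher and 39020 lower as deposited among 87289 tested. There the filter asked for fewer libraries and the rule of one direction for fewer females.

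A few unigenes held much of the FPKM of FH replicate 1. Its 4 most abundant unigenes held 39.7% of its FPKM. The same unigenes held 11.0% in female 2 and 7.05% in female 3, against 6.98 to 17.0% in UH. The most abundant was Unigene62915_All, with 69540, 2662 and 1712 FPKM in FH, against 18290, 19810, 29310, 39980, 48910 and 51740 FPKM in UH. It was above all UH libraries in female 1 and below all of them in females 2 and 3, so it does not have one direction. Its log2 fold change was -2.23 (SE 0.92). In the pituitaries (FP) of fish 1, 2 and 3 it had 6867, 38.7 and 132 FPKM, against 6617 to 10530 FPKM in stage I pituitaries (UP). In their ovaries (FG) it had 3330, 15.1 and 71.5 FPKM, against 8310 to 21010 FPKM in stage I gonads (UG). Female 1 thus lay within the stage I range in pituitary and below it in gonad, and females 2 and 3, the HiSeq 4000 fish, lay far below it in both. CL6956.Contig1_All followed the same order, with 47860, 1182 and 1061 FPKM in FH, against 8208 to 15320 FPKM in UH. The unigene that ranked second in FH replicate 1 had one direction, with 61670, 30740 and 22560 FPKM in FH, against 8698 to 19500 FPKM in UH. Its log2 fold change was 1.41 (SE 0.36) as deposited and 2.20 (SE 0.47) after scaling, and the groups did not overlap. The unigenes of this paragraph were chosen for their level in FH replicate 1, so their changes are a description, with no test.

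The unigenes described next by name had the largest changes in each direction among 6380 candidates, of which 1667 were higher and 4713 lower. Unigene1531_All had 110, 294 and 2250 FPKM in FH, against 25.3, 8.94, 5.16, 7.24, 3.24 and 0.984 FPKM in UH. All FH libraries lay above all UH libraries, and the FH libraries themselves spread widely. Its log2 fold change was 5.92 (SE 0.90, limma adjusted p = 0.000216) as deposited and 6.66 (SE 0.80, adjusted p = 7.49e-05) after scaling. In stage II males (MH, 5 fish) it averaged 4.72 ± 1.76 FPKM (SD), a log2 fold change of -0.35 against UH that did not pass the test (limma adjusted p = 0.693). In pituitary it had 711, 465 and 1520 FPKM in FP, against 5.35 to 29.5 FPKM in UP, a log2 fold change of 6.33 (SE 0.50, limma adjusted p = 3.41e-05). The male pituitaries (MP) had 36.9 to 80.3 FPKM, so in pituitary it was above every UP library in both sexes at stage II. The ovaries had 31.0, 28.2 and 143 FPKM, against 36.0 to 359 FPKM in UG, and these groups overlapped (log2 fold change -1.20, SE 0.65, limma adjusted p = 0.119). The change in hypothalamus minus that in gonad was 7.12 on the log2 scale (SE 1.14), and minus that in pituitary -0.41 (SE 0.68). The named unigenes were chosen for their change in hypothalamus, so these differences between tissues are a description, with no test.

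Unigene37372_All had 51.4, 202 and 198 FPKM in FH, against 1.94, 1.77, 2.72, 0.753, 0.466 and 0.22 FPKM in UH. The groups did not overlap, and female 1 was the lowest of the FH libraries. Its log2 fold change was 5.91 (SE 0.49, limma adjusted p = 3.67e-06) as deposited and 6.55 (SE 0.40, adjusted p = 1.71e-06) after scaling. MH averaged 3.23 ± 2.79 FPKM (SD, 5 fish), a log2 fold change of 0.78 against UH that did not pass the test (limma adjusted p = 0.182). In pituitary it had 24.3, 85.6 and 77.7 FPKM in FP, against at most 3.26 FPKM in UP (log2 fold change 4.53, SE 0.49, limma adjusted p = 0.000105), and MP had 2.00 to 9.18 FPKM. In the gonad it stayed low, with 1.55, 1.66 and 3.59 FPKM in FG, against 0.247 to 6.90 FPKM in UG (log2 fold change 0.28, limma adjusted p = 0.616). Its change in hypothalamus was above that in pituitary by 1.38 (SE 0.42) and above that in gonad by 5.63 (SE 0.56).

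**Figure D3:**
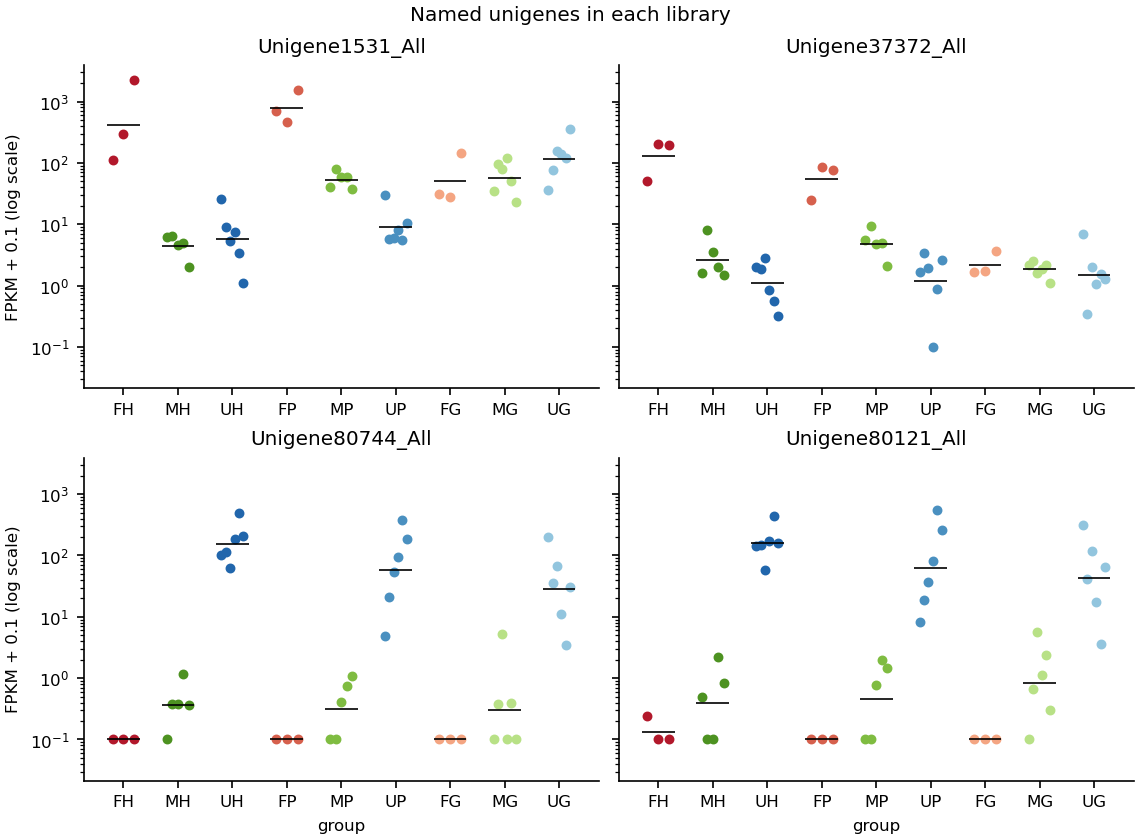
FPKM + 0.1 on a log axis for 4 unigenes in each library of the female, male and stage I hypothalamus (FH, MH, UH), pituitary (FP, MP, UP) and gonad (FG, MG, UG); points are libraries, lines are means of the log values, and points at 0.1 are libraries listed at 0. The 2 upper unigenes have their highest group means in FH and FP. Single gonad libraries of Unigene1531_All, up to 359 FPKM in UG replicate 6, lie above FH replicate 1 at 110 FPKM. The 2 lower unigenes stay below 6 FPKM in every stage II library, and the stage I libraries lie between 3.33 and 551 FPKM.

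The 2 unigenes that fell furthest were found in stage I fish of every tissue. Unigene80744_All was listed at 0 in all 3 FH libraries, against 100, 113, 62.3, 188, 495 and 211 FPKM in UH (limma adjusted p = 1.67e-06 as deposited and 8.82e-06 after scaling). It was also near 0 in the males, at 0, 0.277, 0.274, 1.09 and 0.259 FPKM in MH. In pituitary it was listed at 0 in every FP library and had 0 to 0.976 FPKM in MP, against 4.70 to 378 FPKM in UP. In gonad it was listed at 0 in every FG library and had 0 to 5.06 FPKM in the testes (MG), against 3.33 to 203 FPKM in UG, so 1 testis lay within the stage I range. Unigene80121_All had 0.141 FPKM in FH replicate 1 and was listed at 0 in FH replicates 2 and 3, against 140, 150, 58.6, 174, 446 and 161 FPKM in UH. Its log2 fold change was -7.25 (SE 0.48, limma adjusted p = 1.09e-06) and -6.90 after scaling (SE 0.53, adjusted p = 5.24e-06). With a pseudocount of 0.1 in place of 1 it was -10.2, so its size is set by the pseudocount. MH had 0.396, 0, 0, 2.10 and 0.727 FPKM of it, a log2 fold change of -6.73 against UH (limma adjusted p = 2e-06).

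These 2 unigenes belonged to a larger group that was high in UH and low in FH. In all, 407 unigenes had 10 FPKM or more in every UH library and less than 1 FPKM in every FH library, and 2 unigenes had the reverse pattern. The reverse pattern asks for low values in 6 libraries in place of 3. Both counts are on FPKM as deposited, where the median log2 fold change of all tested unigenes was -0.66. How many unigenes reached 10 FPKM in every UH or every FH library was not counted, so 407 and 2 have no shares beside them. The thresholds choose these unigenes by the contrast itself, so their FH and UH values are a description. The stage II males, which the thresholds did not use, split the 407. A set of 258 had 10 FPKM or more in every MH library as well, 15 had an MH mean below 1 FPKM, and 134 had neither. The 258 had library medians of 0.125 to 0.331 FPKM in FH and 17.5 to 23.1 FPKM in MH, against 22.0 to 24.3 FPKM in UH. The split was made on MH, so the MH values of each set follow from the choice as well. How many of all unigenes high in UH were also high in MH was not counted, so the split has no share to be set against. In pituitary the same 258 unigenes had library medians of 0.206 to 1.35 FPKM in FP, against 3.43 to 5.50 FPKM in UP.

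The 15 unigenes with an MH mean below 1 FPKM, among them Unigene80744_All and Unigene80121_All, had a median of 0 FPKM in each FH library and 0 to 0.852 FPKM in the MH libraries, against 87.3, 95.3, 46.6, 135, 355 and 140 FPKM in UH replicates 1 to 6. These hypothalamus values of the 15 unigenes follow from how they were chosen. In pituitary their medians were 0 FPKM in every FP library and 0 to 1.02 FPKM in MP, against 4.97 to 340 FPKM in UP. In gonad they were 0 FPKM in every FG library and 0 to 4.58 FPKM in MG, against 3.48 to 268 FPKM in UG, where the highest testis lay above the lowest stage I gonad. The 15 unigenes rose and fell together over the 18 stage I libraries. Their pairwise Pearson's r was 0.904 to 0.998 (median 0.98 over 105 pairs) on the log2(FPKM + 1) scale, which does not show fixed proportions between them. These libraries share fish and sequencing, and the r values are given as a description.

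The labelled tissue was checked with lists of unigenes chosen on libraries outside the comparison. A list for hypothalamus, pituitary or testis held unigenes at 10 FPKM or more in the males' tissue and at least 10-fold above the other male tissues, in every library. The ovary list held unigenes at 100 FPKM or more in each FG library and at most 5 FPKM in each stage I pituitary and male pituitary and hypothalamus library. The 277 unigenes of the hypothalamus list summed to 7181, 14970 and 8343 FPKM in FH and 18570 to 21130 FPKM in MH, on which the list was built, against 18640 to 21860 FPKM in UH. In the females' own pituitaries the list summed to 170.2 to 203.8 FPKM. By its sum, the list was thus far higher in FH than in FP and lower than in UH. A sum says little about single members. In FH replicates 1, 2 and 3, 9, 15 and 32 of the 277 were listed at 0, against 0 in every UH library and 68 to 75 in FP. After scaling the sums overlapped, with 12310, 18650 and 10430 in FH, against 12660 to 20290 in UH.

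By unigene, the hypothalamus list was mostly lower in FH. Of its 277 unigenes, 221 (79.8%) were lower and 18 (6.5%) higher as deposited, against 46.6 and 7.33% of all tested unigenes, and its median log2 fold change was -3.25, against -0.66 over all. After scaling 195 (70.4%) were lower and 29 (10.5%) higher, with a median of -2.73 against -0.18. The list asked for 10 FPKM or more in every MH library, whereas the median UH mean of all tested unigenes was 3.03 FPKM. A low unigene cannot fall as far on the log2(FPKM + 1) scale, so the gap between these medians follows in part from level. Of all tested unigenes with a mean of 10 to 100 FPKM, 46.8% were lower as deposited and 33.0% after scaling. The direction was shared by the fish, with 246, 231 and 249 of the 277 unigenes below the UH mean in FH replicates 1, 2 and 3 as deposited and 214, 220 and 237 after scaling. In bulk tissue, fewer cells of a type and less RNA per cell cannot be told apart. Unigenes of the hypothalamus were frequent among the lower calls in general, since the hypothalamus was the male tissue of highest mean level for 54.0% of the 23777 unigenes lower on both scales, against 35.7% of all tested. It was that of 367 of the 407 unigenes high in UH and low in FH. Both sets favour unigenes with a high level in UH hypothalamus, so a highest level in male hypothalamus follows in part from the choice.

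**Figure D4:**
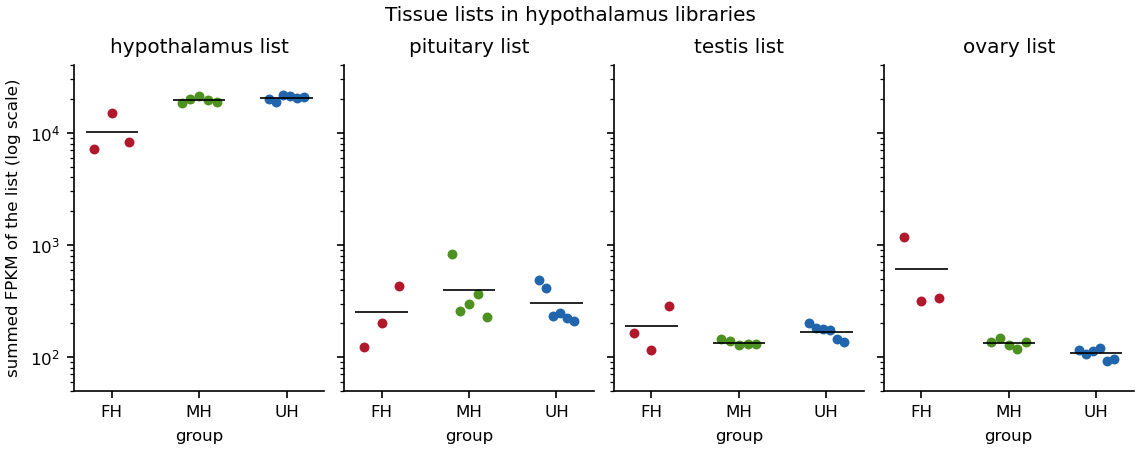
Summed FPKM (log axis) of the hypothalamus, pituitary, testis and ovary lists in each library of FH, MH and UH, with points for libraries and lines for means. The FH libraries lie below MH and UH for the hypothalamus list and above them for the ovary list, with FH replicate 1 highest at 1168 FPKM. The hypothalamus list was built on high MH levels and the ovary list was capped at 5 FPKM in MH. Both contrasts with MH thus follow in part from the choice.

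Unigenes of the ovary list were higher in FH, most of all in female 1. The 173 unigenes summed to 1168, 318.4 and 338.2 FPKM in FH, against 93.2 to 119.8 FPKM in UH, a ratio of means of 5.65 as deposited and 10.8 after scaling. The list was capped at 5 FPKM in MH, in MP and in the pituitaries of the same stage I fish, but in no FH or FP library. A higher level in FH than in UH can thus follow in part from the choice. Only 66 of the 173 passed the filter on low values, and a unigene could pass it on the 3 FH libraries alone, so no calls of the test are counted for this list. Without the filter, 157, 77 and 100 of the 173 lay above every UH library in FH replicates 1, 2 and 3 as deposited. All 3 females lay above every UH library for 57 of the 173 (32.9%) as deposited and 89 (51.4%) after scaling, against 4.07 and 13.9% of the whole table. Over the 173 unigenes, the level in FH as a share of that in the same fish's ovary had medians of 0.578, 0.0415 and 0.0858% in females 1, 2 and 3. In pituitary these medians were 2.21, 0.0646 and 0.113%, so fish 1 was highest in both tissues. The part of this signal in the other higher calls was not tested.

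The summed levels of the pituitary and testis lists moved less than that of the ovary list. The pituitary list had a ratio of summed FPKM of 0.835 in FH over UH as deposited and 1.41 after scaling. Its direction thus depended on the scale. The testis list had a ratio of 1.11 as deposited and 1.92 after scaling, where all 3 FH sums lay above every UH sum. This list was set only against male hypothalamus and pituitary. It summed to 14180 to 19170 FPKM in FG and 14730 to 16920 FPKM in MG, so it does not tell testis from ovary. As deposited, 52 of the 143 pituitary unigenes and 62 of the 230 testis unigenes passed the filter on low values. After scaling 49 and 56 passed it, and the rest of each list was too low to test. A unigene could pass the filter on the FH libraries alone, so no calls of the test are counted for these lists either.

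The unigenes that changed in FH were followed in the other tissues of the same fish. Of the 6048 higher unigenes, 5423 were tested in pituitary, and 2392 of them (44.1%) were also higher in FP than in UP, against 7.01% of all tested there, while 131 were lower. These were 40.2% of all higher calls of the pituitary. Of the 38462 lower unigenes, 24634 of 34518 (71.4%) were also lower in FP, against 40.5% of all, while 179 were higher. After scaling the shares were 50.4% of the higher unigenes, against 15.5% of all, and 60.0% of the lower ones, against 24.7% of all. The tissues share fish, age, sex and sequencing platform, and the part of each in these shares was not tested.

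The gonad differed from this for the higher unigenes. Of 4997 tested, 797 (15.9%) were also higher in FG than in UG, against 9.97% of all, and 1812 (36.3%) were lower, against 52.8% of all. After scaling 4752 of 14016 (33.9%) were also higher, against 23.7% of all, and 3107 (22.2%) lower, against 38.1% of all. The lower unigenes were lower in FG for 18717 of 26952 (69.4%), against 52.8% of all, and after scaling for 8142 of 13730 (59.3%), against 38.1% of all.

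The difference between tissues was tested within fish, from the hypothalamus level minus that of the other tissue in each fish. Of the 6048 higher unigenes, the change was more positive in hypothalamus than in pituitary for 1790 and less positive for 84, and for all tested unigenes these calls were 4.69 and 10.7%. Of the 38462 lower unigenes, 7908 were lowered more in hypothalamus than in pituitary and 344 less, where these calls were 10.7 and 4.69% of all tested. Relative to the gonad, 11727 of the lower unigenes were lowered more and 2257 less, where these calls were 17.5 and 19.3% of all tested. Against the gonad, 4099 of the higher unigenes had the more positive change in hypothalamus and 155 the less positive one, and for all tested unigenes these calls were 19.3 and 17.5%. After scaling, the change of the 16425 higher unigenes was more positive in hypothalamus than in pituitary for 5105 and less positive for 277 (10.4 and 10.7% of all tested), and against the gonad for 9086 and 1320 (23.0 and 21.1%). The 23777 lower unigenes of that scale were lowered more in hypothalamus than in pituitary for 6674 and less for 377 (10.7 and 10.4% of all tested). Relative to the gonad these were 10084 and 745 (21.1 and 23.0%). The higher and lower sets were chosen on their change in hypothalamus, so an excess in that direction follows in part from the choice. The fit was filtered on hypothalamus levels alone. Of the 38462 lower unigenes, only 34518 passed the filter in pituitary and 26952 in gonad. The rest were low in that tissue and had little room to fall there, so the counts lowered more in hypothalamus follow in part from this.

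Stage II males shared the UH libraries as their reference, so the values are given only side by side. The unigenes higher in FH on both scales had a median log2 fold change of 1.43 in FH over UH and 0.28 in MH over UH, for the 4771 tested in both. The lower unigenes had medians of -1.74 in FH over UH and -0.17 in MH over UH, for 23624 tested in both. Over all 79152 unigenes tested in MH the median was -0.01. Both sets were chosen on their change in FH, so a larger median change in FH than in MH follows in part from the choice.

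More unigenes were listed at 0 in females 2 and 3 than in UH. Over the whole table, 11446, 21974 and 24972 unigenes were listed at 0 in FH replicates 1, 2 and 3, against 9150 to 13430 in UH, so female 1 lay within the UH range and females 2 and 3 above it. A set of 443 unigenes was at 1 FPKM or more in every UH library and listed at 0 in every FH library, and 0 unigenes had the reverse pattern, which asks for zeros in 6 libraries in place of 3. With a threshold of 0.5 FPKM these counts were 726 and 9, and on the scaled values 363 and 4. In MH the 443 unigenes had library medians of 2.33 to 3.09 FPKM, and 0.451 to 2.48% of them were listed at 0. In the females' pituitaries 40.4, 72.9 and 78.8% of them were listed at 0 in FP replicates 1, 2 and 3, against 7.9 to 13.8% in UP. The share of all unigenes listed at 0 in FP was not counted, so whether these values are particular to this set was not tested.

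Zeros in females 2 and 3 alone were more frequent still. In all, 805 unigenes were listed at 0 in FH replicates 2 and 3 and had 1 FPKM or more in FH replicate 1 and in every UH library, while 38 were listed at 0 in FH replicate 1 alone. Of the 805, 7.7, 77.9 and 82.7% were listed at 0 in FP replicates 1, 2 and 3, against 0.745 to 2.11% in UP. In FG replicates 1, 2 and 3 these shares were 43.1, 90.7 and 87.5%, against 7.08 to 21.0% in UG. The share of all unigenes listed at 0 was not counted in FP or FG. Whether these values are particular to the 805 was thus not tested. Over the whole series, 628 unigenes were listed at 0 in all 6 HiSeq 4000 libraries and above 0 in the 39 others. Of these, 534 were among the tested unigenes, and since the choice set them at 0 in FH replicates 2 and 3, their calls are not counted here. Platform, read length and fish cannot be told apart, since the HiSeq 4000 libraries are all from females 2 and 3. The paper found the female replicates unlike each other, most of all in hypothalamus, and gives different families as a possible reason. The part of family was not tested.

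**Figure D5:**
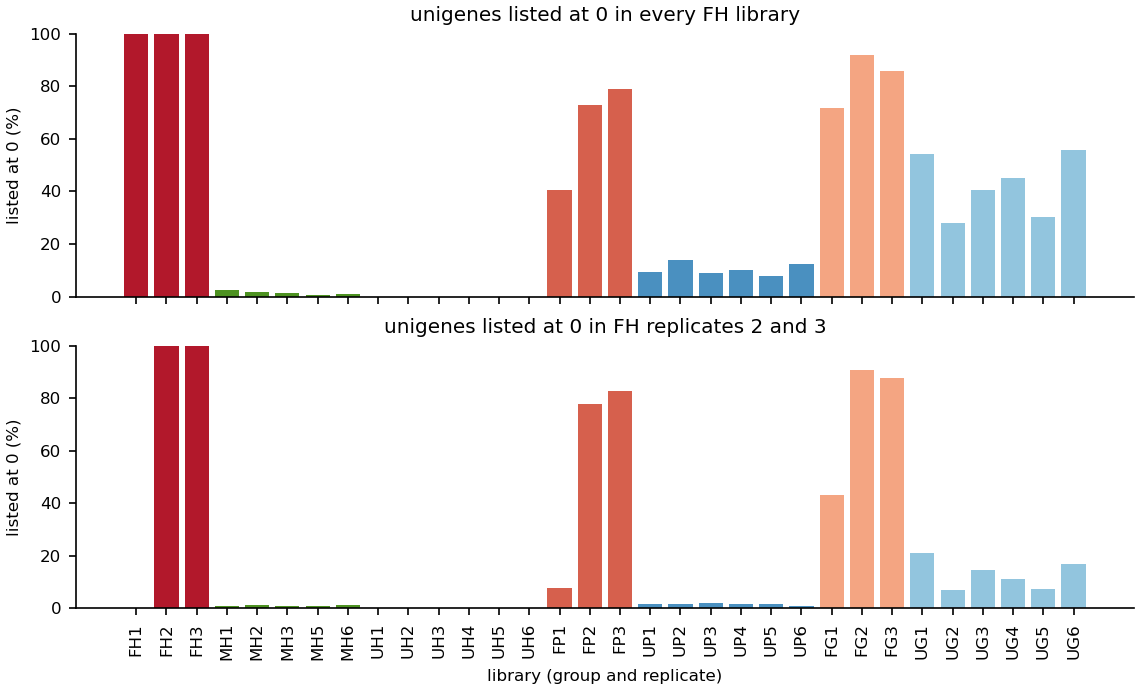
Share (%) listed at 0 in each library of FH, MH, UH, FP, UP, FG and UG for the 443 unigenes at 0 in every FH library (top) and the 805 at 0 in FH replicates 2 and 3 alone (bottom). FH and UH bars follow from how the sets were chosen; in the bottom panel FP replicate 1 is at 7.7% and FP replicates 2 and 3 are at 77.9 and 82.7%.

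Contigs of the same cluster, which the assembler treats as variants of one gene or as close copies, sometimes moved apart. Of 12081 clusters with more than 1 tested contig, 1703 had a contig higher in FH and 4655 one lower on both scales, and 134 had both. These 134 were 7.87% of the clusters with a higher contig and 2.88% of those with a lower one. With FPKM as deposited 252 clusters had both (14.8 and 3.61%), and after scaling 474 did (10.8 and 10.5%). The counting could split reads between such contigs, so single contigs of a cluster are uncertain. Contigs of clusters made up 55.0% of the higher and 45.1% of the lower unigenes called on both scales, against 51.2% of all unigenes tested on both.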

How the data were processed

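The authors filtered reads, assembled unigenes from all libraries and deposited FPKM values per unigene, estimated from reads mapped back to the assembly. All 45 sample columns were mapped to samples and 0 were left unused. The hypothalamus and pituitary of male fish 4 carry contradicting labels and entered no comparison between groups. They were used only among the 39 HiSeq 2000 libraries in the count of zeros over the whole series. Unigenes with 1 FPKM or more in at least 3 of the libraries compared were tested with limma 3.58.1 (lmFit, eBayes with a trend, R 4.3.3) on log2(FPKM + 1), with Benjamini-Hochberg adjustment over all tested and a threshold of 0.05. Fits with MH, and those with an FH library left out in turn, asked for as many libraries as their smaller group held. Scaled values were filtered in the same way. Differences between tissues were fitted to within-fish differences, for unigenes that passed the filter in hypothalamus. Counting and figures used Python 3.11.15, pandas 2.3.3 and Matplotlib 3.10.9. Replicates are different fish.

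Named unigenes were those with the largest absolute log2 fold change in each direction, among those called on both scales with one direction in all females, no overlap between groups and a group mean that reached 10 FPKM on the higher side. Unigene62915_All and CL6956.Contig1_All were named for their share of a library. The members and lists were chosen with earlier results of these data known, so no p-value is given for sums over a list, although an exact permutation test was planned. Thresholds for the sets listed at 0 or split by MH were set after values were seen. In simulated data for FH against UH over 82484 unigenes, the test called 85% of 100 unigenes given a log2 change of 3, 5% of 100 given a change of 1, and 2 unchanged ones. No other unigenes were changed there, so the adjusted threshold was stricter than in the real data, where far more were called. These shares are thus not the power of the comparison above. Alternatives were other filters, pseudocounts and scalings, a replicate block, the libraries left out in turn, HiSeq 2000 libraries alone, 1 fit over all groups, and the NOISeq rule, rewritten here.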

Additional observations from a re-analysis of the deposited data

Results flagged for a closer look

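In 14 groups of 6 stage I libraries looked at, 4 held a library far from the others by Dixon's ratio, whose 95% limit for 6 values is 0.625. Chance gives about 1 in 20 where values are normally distributed and groups are independent. The ratios were taken on FPKM without a log, and the groups share libraries, so that rate need not hold here. Unigene1531_All was at 25.3 FPKM in UH replicate 1, and the next UH library was at 8.94 FPKM. UH replicate 5 gave the other 3: it was at 495 FPKM for Unigene80744_All (next highest 211), at 446 FPKM for Unigene80121_All (next highest 174) and at a median of 355 FPKM for the 15 unigenes high in UH and low in FH and MH (next highest 140), a set that holds both of these unigenes. With these libraries included, FH and UH did not overlap for any of the 3 unigenes or for the medians of the set.

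The change of Unigene1531_All was larger in hypothalamus than in gonad by 7.12 on the log2 scale (SE 1.14). That of Unigene37372_All was larger in hypothalamus than in pituitary by 1.38 (SE 0.42) and than in gonad by 5.63 (SE 0.56). Both unigenes were chosen for the size of their change in hypothalamus, so no p-value is given for these differences.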

How the results depend on the processing

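The count of higher unigenes, 6048 as deposited, was 16425 after median-of-ratios scaling, 10693 when libraries were rescaled without their 10 highest unigenes, 2403 with a filter at 5 FPKM, 2104 with the HiSeq 2000 libraries alone and 9690 with those libraries scaled. The count of lower unigenes, 38462, was 23777 after scaling, 16169 with the filter at 5 FPKM, 12703 with the scaled HiSeq 2000 libraries and 18440 under the NOISeq rule, which called 4131 higher. The filter at 5 FPKM left 29814 unigenes to test and 21085 with one direction, against 55379. Leaving out each library in turn gave 4393 to 12206 higher and 34836 to 39020 lower unigenes, with 12206 higher without FH replicate 1, and 53585 to 73979 with one direction. Leaving out an FH library asks for one direction in fewer females and lets a unigene pass the filter in fewer libraries. Without FH replicate 1, 87289 unigenes were tested, against 82484. Leaving out each library in turn after scaling, chosen after seeing the data for all libraries but FH replicate 1, gave 14600 to 22918 higher, 19035 to 30774 lower and 50321 to 72634 with one direction. Under the scaled HiSeq 2000 libraries, 118 unigenes were higher that had been called lower as deposited; no call turned round in the other settings run.

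FH over UH sums after scaling were 0.823 for the hypothalamus list, 1.41 for pituitary, 1.92 for testis and 10.8 for ovary; leaving out each library in turn as deposited gave 0.379 to 0.569, 0.541 to 1.05, 0.831 to 1.32 and 3.05 to 6.99 in the same order. Unigenes of the hypothalamus list called lower stayed within 1.5 times of 221 under all 29 alternatives. The 4 named unigenes kept direction and call under all 27 alternatives run, with a largest limma adjusted p of 0.0157. Over all 27 results, 409 of 587 alternative values stayed within 1.5 times of a count, 1 SD of a sum or the same call, and 178 moved further.

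A replicate block gave 2964 higher and 32786 lower unigenes. The numbers of FH and UH mark different fish, and the deviations of same-numbered libraries correlated at -0.1192, 0.1129 and 0.118, so the numbers do not pair them. FPKM carries no counts, so the precision of low values is unknown. Values come from 3 females, of which 1 shares the platform of UH.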
